A study of Mus musculus with 5 samples.

Results

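Inhibitory checkpoint receptors are surface proteins that lower the response of lymphocytes when they meet their ligands. The set described here holds 10 receptor genes, Havcr2, Tigit, Lag3, Pdcd1, Ctla4, Btla, Cd160, Klrg1, Cd200r1 and Cd96, of 19938 genes measured. They were chosen by name as receptors of this kind, and each of the 10 was represented by 1 probe set that carried a single gene symbol. The cells were lung natural helper cells, now named group 2 innate lymphoid cells (ILC2), which are lymphocytes without antigen receptors. They were sorted by flow cytometry from naive C57Bl/6 mice 6 to 8 weeks old as lineage-negative, Sca-1-positive, CD127-positive and CD25-positive cells with no or low c-Kit. The unstimulated group (3 arrays) was lysed right after the sort. The PMA and ionomycin group (2 arrays) first spent 3 days in RPMI-1640 with 10% fetal calf serum, 60 ng/ml of the phorbol ester PMA, an activator of protein kinase C, and 500 ng/ml of the calcium ionophore ionomycin. No group was cultured without the activators, so culture and activation cannot be told apart here. Neither sex nor mouse of origin is given in the labels, which do not say whether the samples came from separate mice, so p-values measure the spread between these samples only, which may be technical.

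Several of these receptors, but not all, signal through short tyrosine motifs in their cytoplasmic tails that recruit phosphatases such as SHP-1 (gene Ptpn6) and SHIP-1 (gene Inpp5d). Some share a ligand with an activating receptor. TIGIT and CD96 compete with the activating receptor CD226 for the ligand CD155, and CTLA-4 competes with CD28 for CD80 and CD86. In T cells several of these receptors, but not all, are known from exhaustion. This state follows long stimulation through the antigen receptor, which PMA and ionomycin bypass. KLRG1 is widely used as a surface marker of mature ILC2.

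Values are log2 expression values from RMA, a method that corrects background, normalizes between arrays and summarises probes. Differences are PMA and ionomycin minus unstimulated with the standard error (SE) of a limma fit over all genes. The words rose and fell are kept for genes whose p, adjusted by Benjamini and Hochberg's method, was under 0.05. Of 12 natural helper cell markers, 9 had a probe set of their own and averaged 10.1 to 10.4 on the unstimulated arrays and 9.59 to 9.63 on the stimulated ones. Of these 9, 4 fell and none rose, so the list average does not describe each marker. Kit, the gene of the stem cell factor receptor, fell from 9.85 ± 0.14 (SD, n = 3) to 6.98 ± 0.20 (SD, n = 2), a 7.26-fold difference (limma adjusted p = 0.0229). Il17rb, the IL-25 receptor gene, fell 9.35-fold (-3.23 ± 0.32 SE, adjusted p = 0.0492). Il7r, the gene of the sort marker CD127, fell by 0.77 (adjusted p = 0.0229) and the transcription factor gene Rora by 0.82 (0.0456). The cytokine gene Il13 read 9.25 ± 0.61 (SD, n = 3) and then 11.7 ± 0.21 (SD, n = 2), which did not pass (2.41, adjusted p = 0.0942). These calls were lost with any 1 unstimulated array left out (adjusted p 0.0541 to 0.162), and those of Il17rb and Rora also without either stimulated array (0.0526 to 0.0789), with robust variances (0.0668 and 0.0624) and with all probe sets tested together (0.0564 and 0.0533). The gene of the sort marker Sca-1 (Ly6a), the IL-33 receptor gene Il1rl1 and Areg were not among the single-gene probe sets. Unstimulated array 3 stood apart. It correlated at 0.980 and 0.981 with the other unstimulated arrays, which correlated at 0.989 with each other. It read lower for several lists of other cell types and for the natural helper cell list (means 10.37, 10.43 and 10.10 on unstimulated arrays 1 to 3). The mean over 5 endothelial markers was 8.21, 7.79 and 6.26 on unstimulated arrays 1 to 3 and 5.60 and 5.91 on the stimulated arrays. Neutrophil markers (5) averaged 5.44 to 6.91 and then 4.70 to 4.75, macrophage and monocyte markers (7) 5.41 to 5.89 and then 4.92 to 5.03, and mast cell and basophil markers (6) 4.76 to 4.92 and then 4.19 to 4.28. None of these markers was called. In such bulk samples, fewer cells of a type and less RNA per cell cannot be told apart.

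The receptors did not move as a block. Havcr2, Tigit and Lag3 rose, by 6.99-fold to 11.5-fold. None of the 10 fell. The share of all genes called higher was 0.737%, and the share called lower was 0.963%. Groups did not overlap for 5 members with higher values after stimulation (Havcr2, Tigit, Lag3, Pdcd1 and Cd160) and for 3 with lower values (Klrg1, Cd200r1 and Cd96), against 18.6% and 14.0% of all genes. Ctla4 and Btla overlapped. At an unadjusted p under 0.05 there were 5 members higher and 3 lower, against 11.3% and 8.58% of all genes, and at an adjusted p under 0.1 there were 4 and 3, against 3.79% and 3.49%. The median difference of the 10 members was 0.65 and that of all genes tested was 0.00. The count of members that rose was 1 without unstimulated array 1, 0 without array 2, 2 without array 3, 1 without stimulated array 1 and 2 without stimulated array 2. In the same fits 2, 0, 45, 343 and 361 of all genes were called higher, so without unstimulated array 2 no gene passed at all, and the members' count there says nothing about them (5 were higher at an unadjusted p under 0.05 by limma, against 8.57% of all genes). With robust variances, Havcr2 alone was called, with 45 of all genes. Without unstimulated array 3, 1 member, Cd200r1, was called lower, with 43 of all genes. These counts are read from a set picked with earlier results known and are descriptions of it.

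**Figure D1:**
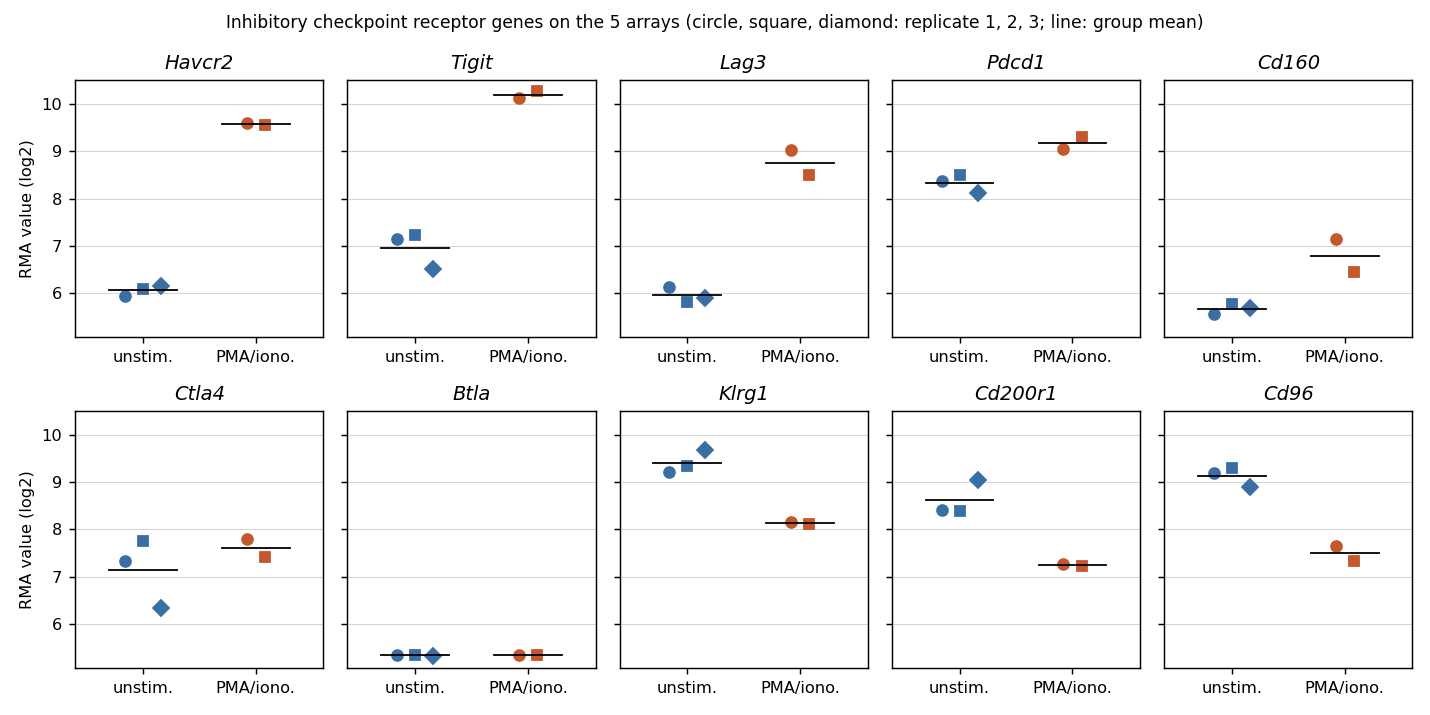
RMA values (log2, vertical axis) of the 10 receptor genes on the 3 unstimulated arrays (blue) and the 2 PMA and ionomycin arrays (orange), with replicates 1, 2 and 3 as circle, square and diamond and group means as lines. Havcr2, Tigit and Lag3 are far above their unstimulated values after stimulation, Klrg1, Cd200r1 and Cd96 lie lower, and Ctla4 and Btla overlap between groups.

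Havcr2 codes for TIM-3, a receptor for galectin-9, phosphatidylserine and CEACAM1. It read 5.93, 6.10 and 6.14 on unstimulated arrays 1, 2 and 3, and 9.60 and 9.56 on stimulated arrays 1 and 2. The stimulated arrays lay close together, and the lower of them was 3.41 above the highest unstimulated array. Havcr2 rose 11.5-fold (3.52 ± 0.08 SE, adjusted p = 0.0158), the 6th largest difference upward among the 19938 genes. Its call was lost without unstimulated array 2 (3.54, adjusted p = 0.0881). In 16 alternative fits the difference ran from 3.44 to 3.57, and it was called in 13 of them. Of the other TIM family genes, Havcr1 (TIM-1) differed by 0.01 ± 0.03 SE, Timd4 (TIM-4) by 0.02 ± 0.03 and Timd2 by 0.01 ± 0.21. Havcr1 had 1 repeated value (4.65) on all 3 unstimulated arrays, and Timd4 had a value (5.38) that was repeated in both groups. The small SEs of Havcr1 and Timd4 are therefore no measure of precision.

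Tigit codes for the receptor of CD155 and CD112 on T cells and natural killer cells. It read 7.15, 7.23 and 6.51 on the unstimulated arrays and 10.1 and 10.3 on the stimulated arrays. Unstimulated array 3 was the lowest, and the gap between the groups was 2.91. Tigit rose 9.44-fold (3.24 ± 0.27 SE, adjusted p = 0.0430). The difference was 3.69 with unstimulated array 3 as the only control and 3.01 without that array. The call was lost without unstimulated array 1 (adjusted p = 0.114), unstimulated array 2 (0.130), stimulated array 1 (0.113) or stimulated array 2 (0.106), with differences of 3.17 to 3.37 in those fits, and with robust variances (0.0601).

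Lag3 codes for a relative of CD4 that binds MHC class II and the secreted protein FGL1. It read 6.14, 5.82 and 5.89 on the unstimulated arrays and 9.02 and 8.49 on the stimulated arrays. The stimulated arrays differed by 0.53 and both lay at least 2.35 above the unstimulated ones. Lag3 rose 6.99-fold (2.81 ± 0.21 SE, adjusted p = 0.0378). Its call was lost without unstimulated array 1 (adjusted p = 0.104), array 2 (0.137) or array 3 (0.0822) and without stimulated array 1 (0.0565), with differences of 2.54 to 2.90, and with robust variances (0.0546). Cd4, the neighbouring gene on chromosome 6 in RefSeq's annotation and a relative in sequence, read 4.92 ± 0.14 (SD, n = 3) and 4.60 ± 0.09 (SD, n = 2), and its difference of -0.32 (SE 0.10) did not pass (adjusted p = 0.217).

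The promoter sequences of Havcr2 and Tigit are shown because these genes rose together, and that of Cd96 because it shares a ligand with TIGIT and differed the other way. Each runs from 250 bases before to 50 bases after the gene's start in RefSeq (GRCm38.p6), 5′ to 3′ in the gene's direction. Havcr2 lies on the plus strand at chr11:46454681-46454980, Tigit on the minus strand at chr16:43664135-43664434 and Cd96 on the minus strand at chr16:46120199-46120498. Capitals mark matches on either strand to TGANTCA (the AP-1 site), GGAAA (the core of the NFAT site) and TGTGGTT (the Runx site).
Havcr2: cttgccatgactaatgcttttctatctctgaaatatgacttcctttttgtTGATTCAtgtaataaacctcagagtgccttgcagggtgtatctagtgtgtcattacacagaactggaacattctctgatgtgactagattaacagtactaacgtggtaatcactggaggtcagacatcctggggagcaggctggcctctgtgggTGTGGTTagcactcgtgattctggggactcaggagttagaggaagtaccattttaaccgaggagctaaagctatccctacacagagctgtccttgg
Tigit: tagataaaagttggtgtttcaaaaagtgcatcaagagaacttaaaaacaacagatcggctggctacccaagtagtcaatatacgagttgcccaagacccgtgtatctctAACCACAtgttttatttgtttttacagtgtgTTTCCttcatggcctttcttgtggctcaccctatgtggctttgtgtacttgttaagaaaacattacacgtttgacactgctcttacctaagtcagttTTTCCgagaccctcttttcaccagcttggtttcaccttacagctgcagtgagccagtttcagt
Cd96: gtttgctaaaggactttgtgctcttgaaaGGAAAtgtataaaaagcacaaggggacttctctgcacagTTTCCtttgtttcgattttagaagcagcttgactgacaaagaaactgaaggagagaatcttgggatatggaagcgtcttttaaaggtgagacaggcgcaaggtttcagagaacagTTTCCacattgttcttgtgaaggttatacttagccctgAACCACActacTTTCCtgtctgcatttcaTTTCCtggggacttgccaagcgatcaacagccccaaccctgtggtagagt

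PMA and ionomycin are known to activate AP-1 and NFAT. Of the 10 members, 7 had a promoter in the sequence table (Havcr2, Tigit, Pdcd1, Ctla4, Btla, Cd160 and Cd96). Cd160 had 2 promoters listed and the other genes 1. A gene was counted when any of its promoters matched, while the shares given beside the counts are per promoter. The Havcr2 promoter held 1 match to the loose AP-1 pattern TGANTCA, the letters TGATTCA, 200 bases before the start. No other member's window held a match to this pattern, while 7.81% of all 32851 promoters of this length did. The strict form of the AP-1 site was not searched. GGAAA was found in 5 of the 7 genes (Tigit, Pdcd1, Ctla4, Cd160 and Cd96), near its share of 61.3% among all promoters. The Cd96 window held 5 matches and the Tigit window 2. TGTGGTT was found in 5 of the 7 (Havcr2, Tigit, Btla, Cd160 and Cd96), against 5.27% of all promoters. After stimulation these 5 genes had differences from -1.64 (Cd96) to 3.52 (Havcr2). Further motifs were searched on both strands. The CRE site TGACGTCA, held by 1.79% of all promoters, was in none of the 7 genes. The T-box site TCACACC, held by 3.98%, was in Cd160 alone. The site of GATA factors, written AGATAA and held by 11.2%, was in Tigit alone. The ETS site AGGAAGT, held by 9.35%, was in Havcr2 and Btla. GGAAA and AGGAAGT share the letters GGAA, but Havcr2 and Btla, which held AGGAAGT, held no GGAAA. A match is a stretch of letters, not a bound site.

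Pdcd1, the gene of PD-1, read 8.37, 8.50 and 8.12 on the unstimulated arrays and 9.05 and 9.30 on the stimulated arrays. Both stimulated arrays lay above all unstimulated ones, by 0.56 at the narrowest. The difference was 1.80-fold (0.85 ± 0.16 SE, adjusted p = 0.0992) and did not pass. Its 95% interval ran from 0.40 to 1.30, below the lower bounds of Havcr2 (3.30), Tigit (2.46) and Lag3 (2.19). Pdcd1 was called in 1 of 16 alternative fits, among genes above the median level (adjusted p = 0.0404), where fewer genes were tested.

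Cd160 codes for a receptor of HVEM, a ligand it shares with BTLA. It read 5.55, 5.78 and 5.68 on the unstimulated arrays and 7.14 and 6.44 on the stimulated arrays. The groups were apart by 0.67, and the stimulated arrays differed from each other by 0.70. The difference of 1.12 ± 0.25 SE did not pass (adjusted p = 0.128). It was 1.47 without stimulated array 2 and 0.77 without stimulated array 1.

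Btla, the other HVEM receptor gene, read 5.34, 5.35 and 5.32 on the unstimulated arrays and 5.34 on both stimulated arrays. On 3 arrays, in both groups, it had 1 value to 5 decimals, and all 5 values lay under each array's median (5.63 to 5.66). Repeated values were common in the table (62.0% of genes on 2 or more arrays), so the small spread of Btla is no measure of precision. Its difference of 0.01 had an interval of -0.04 to 0.05. The HVEM gene Tnfrsf14 differed by 0.03 ± 0.04 SE.

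Ctla4 read 7.34, 7.76 and 6.33 on the unstimulated arrays and 7.79 and 7.41 on the stimulated arrays. The groups overlapped, and unstimulated array 3 lay 1.01 below the next array. The difference was 0.46 ± 0.51 SE (95% interval -1.02 to 1.94, adjusted p = 0.651), which leaves out a rise as large as that of Havcr2 but takes in 2-fold changes both ways. It was 0.05 without unstimulated array 3 and 1.27 with that array as the only control. Leaving out stimulated array 1 gave 0.27, and leaving out unstimulated array 2 gave 0.77.

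Klrg1 codes for a lectin-like receptor of cadherins. It read 9.22, 9.34 and 9.68 on the unstimulated arrays and 8.15 and 8.12 on the stimulated arrays. Every stimulated value lay below every unstimulated one, with a gap of 1.06. The difference of -1.27 ± 0.16 SE (2.42-fold lower) did not pass (adjusted p = 0.0641). It passed after quantile normalization (-1.30, adjusted p = 0.0209), after median centring (-1.25, 0.0290) and among genes above the lower quartile (0.0470) or the median (0.0238).

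Cd96 codes for the receptor that shares CD155 with TIGIT. It read 9.20, 9.30 and 8.91 on the unstimulated arrays and 7.65 and 7.33 on the stimulated arrays. The groups were apart by 1.25. The difference of -1.64 ± 0.18 SE (3.12-fold lower, adjusted p = 0.0529) did not pass. It passed under the same 4 settings as Klrg1, with adjusted p of 0.0157 to 0.0384. Tigit and Cd96, whose products bind the same ligand, thus had differences of 3.24 and -1.64, with 95% intervals of 2.46 to 4.02 and -2.15 to -1.14.

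Cd200r1 codes for the receptor of CD200, which holds back myeloid cells and ILC2. It read 8.41, 8.40 and 9.05 on the unstimulated arrays and 7.27 and 7.24 on the stimulated arrays. The groups were apart by 1.13. The difference of -1.37 ± 0.25 SE (2.58-fold lower) did not pass (adjusted p = 0.0995). Unstimulated array 3 was the highest here, and without it the smaller difference of -1.15 passed (adjusted p = 0.0360). It also passed after quantile normalization (-1.39, 0.0428) and when genes below the median level were left out (0.0400). The paralogs Cd200r4 and Cd200r2 also read lower after stimulation. Cd200r4, next to Cd200r1 on chromosome 16 in RefSeq's annotation, fell from 7.54 ± 0.14 (SD, n = 3) to 5.31 ± 0.16 (SD, n = 2), with a difference of -2.23 (SE 0.12, adjusted p = 0.0278). That call was lost without unstimulated array 1 (0.0919), array 2 (0.102) or array 3 (0.0607) and without stimulated array 1 (0.0547). Cd200r2 differed by -0.87 ± 0.15 SE (adjusted p = 0.0937). These genes were named after their values were seen, and probes of such close copies may read each other's RNA, so the separate values are uncertain. Several markers of myeloid cells and mast cells, which also carry CD200 receptors, read lower after stimulation as well. Lyz2, the lysozyme gene of macrophages, read 7.88, 7.50 and 6.49 and then 4.11 and 3.98 (-3.25 ± 0.49 SE, adjusted p = 0.0778), and Cpa3, the carboxypeptidase gene of mast cells, read 6.47, 7.48 and 6.74 and then 4.11 and 4.08 (-2.80 ± 0.36, 0.0641). S100a9 differed by -3.15 and Cd14 by -1.02. Groups did not overlap, with lower values after stimulation, for 4 of 7 macrophage and monocyte markers and 3 of 5 neutrophil markers. The same held for 2 of 6 mast cell and basophil markers, against 14.0% of all genes. Marco, among the macrophage markers counted, differed by only -0.03. For the neutrophil marker Ly6g the groups did not overlap with higher values (0.30 ± 0.11 SE), against 18.6% of all genes. Csf1r (4.60 to 4.75) and Mcpt8 (4.53 to 4.72) lay under the median of all probe sets on each array. On unstimulated array 3, where Cd200r1 was highest, Lyz2 was lowest and Cpa3 lay between the other arrays. The mean of the macrophage and monocyte markers was lowest there (5.89, 5.68 and 5.41). That of the mast cell and basophil markers was highest there (4.76, 4.85 and 4.92). Fcer1a of that list (4.17, 3.84 and 4.79) and Milr1, known from mast cells (7.33, 7.31 and 7.94), were highest there too, while Mcpt8 was lowest (4.54, 4.72 and 4.53). The part of these cells in the values of Cd200r1 was not tested.

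The receptor genes also varied between the unstimulated arrays. On array 3, Ctla4 was 0.81 and Tigit 0.45 below their group means, while Cd200r1 was 0.43 and Klrg1 0.27 above theirs. On that array Havcr2 was 0.08 above and Lag3 0.06 below its mean. Several genes of T cells, which also carry CTLA-4 and TIGIT, were low on the same array, but not all. Array 3 was the lowest unstimulated array for 7 of 10 T cell markers and 5 of 8 NK cell markers, against 23.1% of all genes. This was not particular to those lists, as it was also lowest for 7 of 9 natural helper cell markers. The same held for 5 of 5 endothelial and 5 of 5 neutrophil markers. It held for 1 of 4 regulatory T cell, 1 of 6 mast cell and basophil and 1 of 5 fibroblast markers. The CD3 genes Cd3d (8.25, 8.65 and 6.47) and Cd3e (8.30, 8.70 and 7.41) were lower on array 3, as was Gzma (7.34, 7.48 and 5.40), the granzyme A gene of cytotoxic cells. The third CD3 gene, Cd3g, had the highest level of the list and was not low there (10.2, 10.6 and 10.2), nor were Lat (9.75, 10.1 and 9.77) and Cd247 (6.56, 6.64 and 6.56), and Ncr1 was highest on array 3 (4.62, 4.28 and 5.12). After stimulation Cd3d read 7.68 and 6.75, Cd3e 7.46 and 7.00, and Gzma 6.86 and 5.29. The mean of 10 T cell markers was 6.78 to 7.61 on the unstimulated and 6.72 to 6.92 on the stimulated arrays, and that of 8 NK cell markers was 4.73 to 5.26 and 4.45 to 4.96. No marker of either list was called. Groups did not overlap, with lower values after stimulation, for 3 of 10 and 0 of 8 markers (14.0% of all genes). For 1 NK cell marker they did not overlap with higher values (18.6% of all genes). The T cell marker Cd4 (4.54 to 5.05) and the NK cell marker Ncr1 (4.28 to 5.12) lay under the median of all probe sets on each array. The regulatory T cell gene Foxp3 read 6.12, 6.18 and 6.28 on the unstimulated arrays, highest on array 3, and then 6.07 and 6.05. The part of these cells in the values of Ctla4 and Tigit was not tested.

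**Figure D2:**
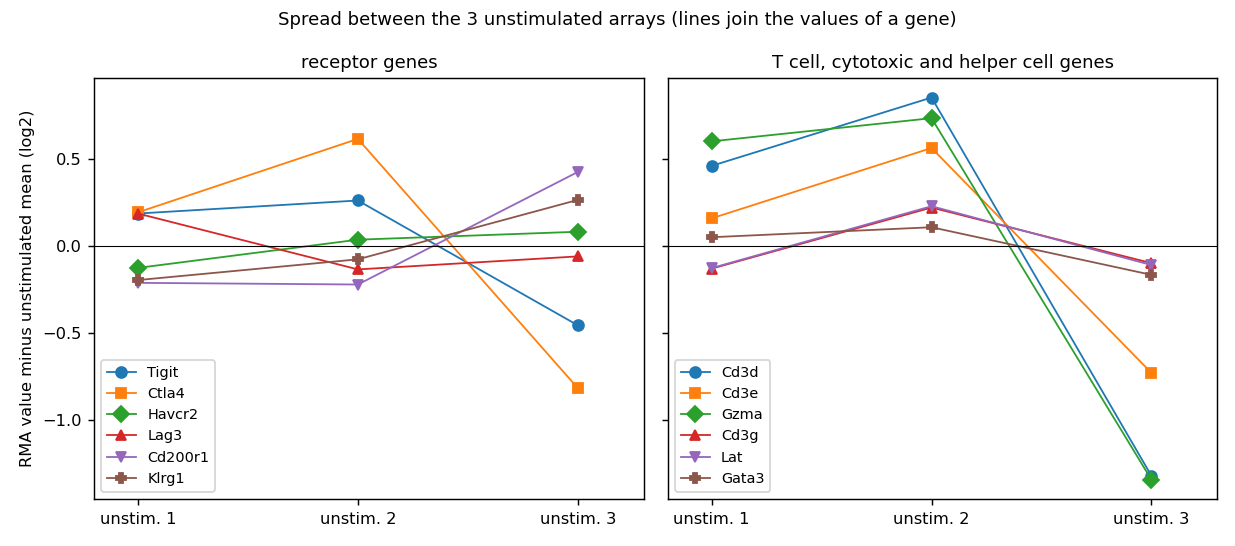
RMA values minus the mean of the 3 unstimulated arrays (log2, vertical axis) on each unstimulated array, with a line per gene that joins its values and implies no order of the replicates. Ctla4 (-0.81) and Tigit (-0.45) are low on array 3 with Cd3d, Cd3e and Gzma, while Cd200r1 (0.43) is high there and Havcr2 and Lag3 are near 0.

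Genes listed as partner receptors of the checkpoint genes were not called. Of 6 measured, none rose and none fell, with a median difference of 0.02. The list takes in Icos and Cd2, so it is not confined to receptors that share a ligand with a member. Cd28, the activating counterpart of CTLA-4, read 8.14, 8.11 and 7.08 and then 9.19 and 9.22, a difference of 1.43 ± 0.41 SE (adjusted p = 0.189). Without unstimulated array 3 it was 1.08 and passed (adjusted p = 0.0360). Cd226, the activating counterpart of TIGIT and CD96, read 7.82, 8.06 and 8.67 and then 7.34 and 7.26, a difference of -0.88 ± 0.30 SE (adjusted p = 0.242). Icos, which lies beside Ctla4 and codes for a costimulatory receptor of ILC2, differed by 0.20 ± 0.11 SE, and the adhesion receptor gene Cd2 by -1.51 ± 0.71.

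Of 17 ligand genes none was called, and their median difference was -0.05. Lgals9, the gene of the TIM-3 ligand galectin-9, read 8.24, 8.55 and 8.43 and then 7.81 and 7.65 (-0.68 ± 0.12 SE, adjusted p = 0.0937). It passed after quantile normalization (-0.71, adjusted p = 0.0225) and when genes below the median level were left out (0.0390). The PD-1 ligand genes Pdcd1lg2 (0.40 ± 0.17 SE) and Cd274 (-0.05 ± 0.25), the CD155 gene Pvr (-0.45 ± 0.34), the CTLA-4 ligand genes Cd80 (-0.05 ± 0.09) and Cd86 (-0.28 ± 0.39) and Cd200 (0.66 ± 0.79) had intervals that reached 0. The KLRG1 ligand genes Cdh1 and Cdh2 differed by -0.38 ± 0.12 SE (adjusted p = 0.217) and -0.25 ± 0.15 (0.472). Of these, Cd274, Pvr, Cd80, Cd86 and Cd200 were named after their values were seen.

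**Figure D3:**
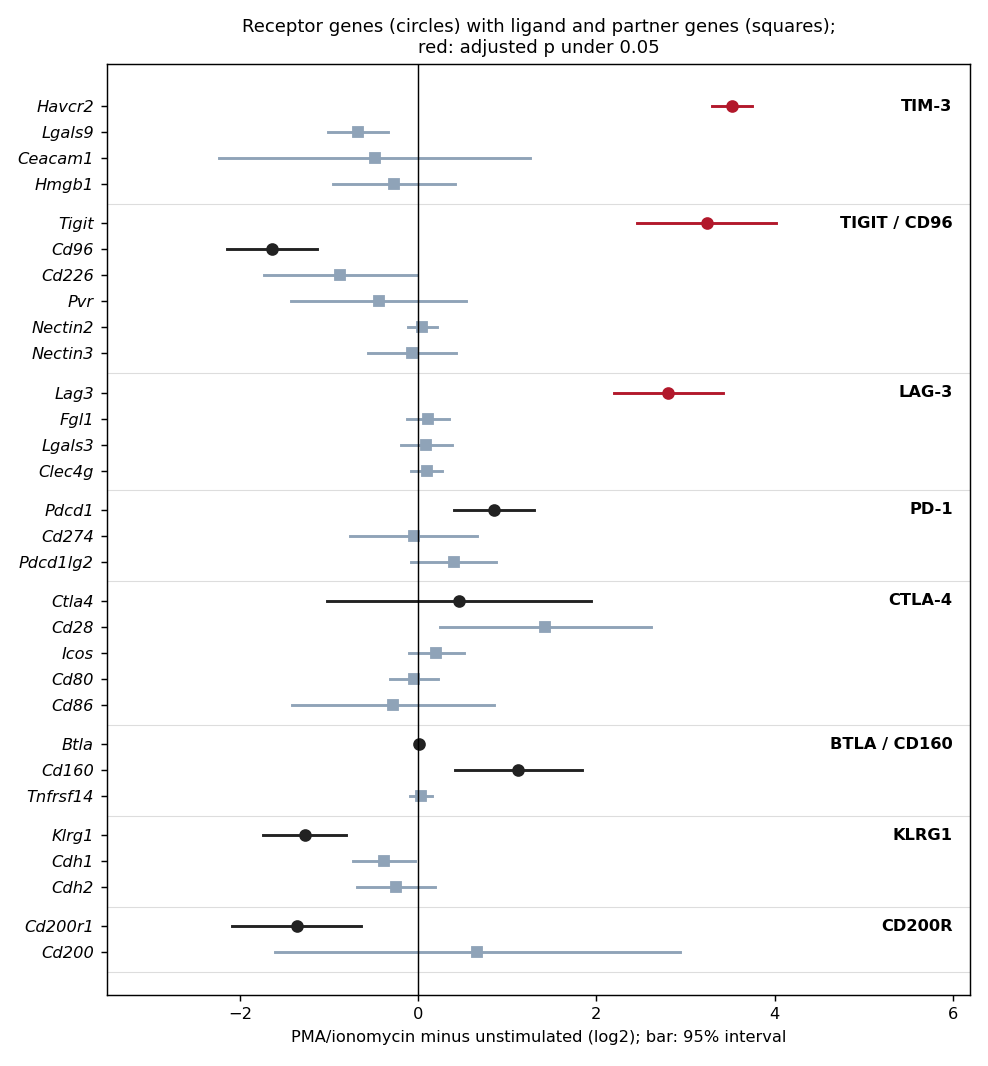
Differences between the groups (log2, horizontal axis) with 95% intervals of the fit, for each receptor gene (circles) above its ligand and partner genes (squares). Havcr2, Tigit and Lag3 (red) are the genes shown with an adjusted p under 0.05, and no ligand or partner gene passed.

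Below the receptors, none of 14 measured phosphatase and adaptor genes was called (median 0.03). Ptpn6, the SHP-1 gene, read 7.21, 7.59 and 7.59 and then 8.81 and 8.51, so the groups did not overlap. Its difference of 1.20 ± 0.18 SE did not pass (adjusted p = 0.0773), but passed after quantile normalization (adjusted p = 0.0245), after median centring (0.0387) and among genes above the median (0.0301). Inpp5d, the SHIP-1 gene, read 9.01, 9.32 and 9.29 and then 8.49 and 8.64 (-0.64 ± 0.13 SE, adjusted p = 0.108). The adaptor gene Sh2d2a differed by 0.78 ± 0.15 (adjusted p = 0.101) and the Ras GTPase activator gene Rasa1 by -0.25 ± 0.08 (0.228). Inpp5d and Sh2d2a passed after quantile normalization (0.0390 and 0.0365) and among genes above the median (0.0461 and 0.0417). The proteases that shed LAG-3 and TIM-3 were not called either, with Adam10 at 0.60 ± 0.21 SE (adjusted p = 0.247) and Adam17 at 0.19 ± 0.10 (0.425).

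Among 21 other inhibitory receptor and related genes, Cd47 fell, and none rose (median -0.13). Cd47, whose product keeps macrophages from engulfing the cell, went from 10.9 ± 0.02 (SD, n = 3) to 10.4 ± 0.08 (SD, n = 2), and the difference was -0.57 (SE 0.04, adjusted p = 0.0363). The call was lost without unstimulated array 1 (0.111), array 2 (0.137) or array 3 (0.0782) and with robust variances (0.0514), and the mean of its probe sets gave a smaller difference (-0.30, adjusted p = 0.0324). Lilrb4a read 9.88, 9.23 and 9.71 and then 10.8 and 10.7 (1.11 ± 0.23 SE, adjusted p = 0.119), and Milr1, whose product is known from mast cells, read 7.33, 7.31 and 7.94 and then 5.70 and 6.02 (-1.67 ± 0.26, adjusted p = 0.0822); both were named after their values were seen. Milr1 passed after quantile normalization (0.0331), after median centring (0.0391) and among genes above the median (0.0318), and Lilrb4a passed in the last of these (0.04998). Fcgr2b, the gene of an inhibitory Fc receptor, also named after its values were seen, differed by -0.20 without stimulated array 1 and by 0.16 without stimulated array 2. It had 1 repeated value (4.65) on all 3 unstimulated arrays, so its lack of spread there is no measure of precision. In the adenosine pathway, another brake on lymphocytes, Nt5e, which codes for the enzyme CD73, fell from 8.02 ± 0.15 (SD, n = 3) to 6.65 ± 0.07 (SD, n = 2), and the difference was -1.37 (SE 0.11, adjusted p = 0.0416). Entpd1 (CD39) differed by -1.46 ± 0.59 (adjusted p = 0.319). The Nt5e call was lost with any 1 of the 5 arrays left out (adjusted p 0.0587 to 0.147) and with robust variances (0.0589).

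Of 21 transcription factor genes tied to checkpoint expression in T cells, Irf4 rose and Id2 fell, with a median of -0.28 over the list. Irf4, induced by antigen receptor signals, read 6.65, 7.08 and 6.97 and then 10.0 and 10.3, a difference of 3.25 ± 0.17 SE (adjusted p = 0.0271). Id2, which ILC2 need to develop, differed by -0.78 ± 0.05 SE (adjusted p = 0.0352). Both calls were lost with any 1 array left out (adjusted p 0.0536 to 0.104 for Irf4 and 0.0527 to 0.127 for Id2), and that of Id2 with robust variances (0.0504). The partner of IRF4, Batf, read 7.47, 7.93 and 7.91 and then 9.36 and 9.03 (1.43 ± 0.21 SE, adjusted p = 0.0753). The NR4A genes, targets of calcium signals, read lower after 3 days. Nr4a1 differed by -2.32 ± 0.35 SE (adjusted p = 0.0769), Nr4a2 by -1.96 ± 0.26 (0.0666) and Nr4a3 by -1.09 ± 0.21 (0.106). Batf, Nr4a1 and Nr4a2 passed after quantile normalization, after median centring and with genes below the median level left out (adjusted p 0.0222 to 0.0381), and Nr4a3 in the first and last of these (0.0446 and 0.0428). Nr4a2 also passed among genes above the lower quartile (0.0493) and without stimulated array 2 (-2.32, 0.0422). Over the list, 4 rose and 5 fell after quantile normalization, 3 and 3 after centring, and 4 and 4 among genes above the median. Calls also grew over all genes in these fits. The shares called higher and lower were 4.14% and 3.66%, 3.31% and 2.64%, and 8.03% and 6.95%, against 0.737% and 0.963% in the main fit. Tox differed by -0.02 ± 0.07 SE and Prdm1, the Blimp-1 gene, by 0.00 ± 0.25. Batf, the NR4A genes, Tox and Prdm1 were named after their values were seen.

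The genes with the profiles most like those of the called members were found by the distance between values on the 5 arrays, each gene centred on its unstimulated mean. Nearest to Havcr2 were the isoprenoid enzyme genes Idi1 (distance 0.34 in log2 units) and Idi2 (0.49), the transcription factor genes Irf4 (0.48) and Zbtb32 (0.54), and Tigit (0.79). For Tigit the nearest were Penk, the proenkephalin gene (0.23), Tspan6 (0.52), the cytokine genes Il17f (0.55) and Il4 (0.56), and Idi1 (0.55). For Lag3 they were Olr1 (0.33), Tspan6 (0.45), Serpinb9, the gene of a granzyme B inhibitor (0.53), Tnfrsf9, the gene of the costimulatory receptor 4-1BB (0.53), and Il10 (0.56). Penk followed Tigit down on unstimulated array 3, with 7.32, 7.32 and 6.57 on the unstimulated arrays. Il17f and Il10 did not pass the test themselves (adjusted p = 0.0526 and 0.0508). With 5 arrays and a large difference between groups, closeness mostly reflects a like size of difference.

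**Figure D4:**
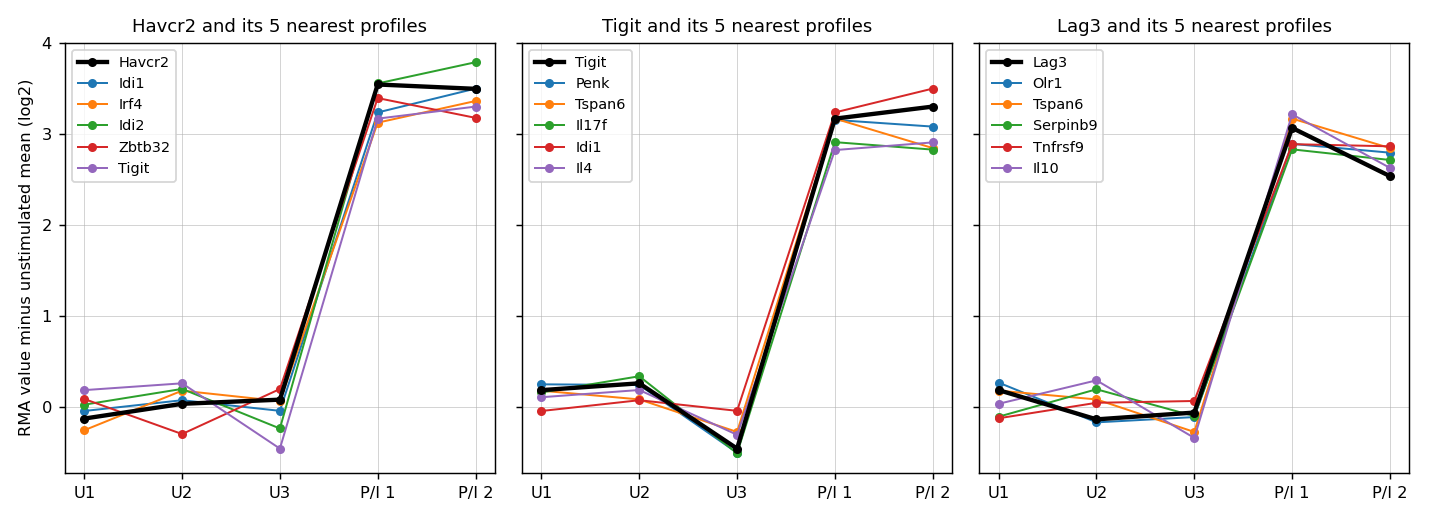
RMA values minus the unstimulated mean (log2, vertical axis) on unstimulated arrays 1 to 3 (U1 to U3) and stimulated arrays 1 and 2 (P/I 1 and P/I 2) for Havcr2, Tigit and Lag3 (black) and the 5 genes nearest to each (colours), joined by lines for each gene. The stimulated values of each panel lie within a narrow band, and Tigit and Penk share a low value on U3.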

How the data were processed

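Expression was measured on 5 one-colour Affymetrix arrays, with biotin-labelled cRNA from 6 micrograms of total RNA. The deposited log2 values were made by the authors with RMA, per the submitters' processing notes; its version and the arrays normalized together are not given in the sources used here. No detection calls were given, and precision is limited by the number of arrays. Groups and replicate numbers came from the titles. Of 35556 probe sets, 21789 had 1 gene symbol in the platform annotation, 1621 had several and 12146 are unnamed here, and 21698 matched RefSeq by Entrez number. The probe set with the highest mean stood for each gene. All 19938 genes were fitted with limma 3.58.1 in R 4.3.3 (lmFit, eBayes, no filter, Benjamini-Hochberg over all genes). Moderation used 3 residual and 0.649 prior degrees of freedom. The code was tested on simulated data. A permutation test of 3 against 2 arrays cannot reach 0.05 and was not run.

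The members and gene lists were chosen with earlier results of these data known. The text names all members, the called genes of each pathway list or else up to 4 with the smallest p, and the 5 nearest profiles of each called member. Alternatives were other variance, weighting, filter, probe set, scaling and threshold settings, the replicate block and leaving out each array. Cell type markers were named after their values were seen. Unstimulated array 3 as the lone control was added after seeing the data. Plots used matplotlib 3.10.9 in Python 3.11.15.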

Additional observations from a re-analysis of the deposited data

How the results depend on the processing

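Against 3 members called higher, robust variances gave 1, the replicate block 0, unstimulated array 3 as the lone control 0 and an unadjusted p under 0.05 gave 5 (11.3% of all genes), and leaving out 1 array gave 0 to 2. With none left out, 0 members were called lower by limma (3 at an unadjusted p under 0.05, 8.58% of all genes). There were 2 above the lower quartile, 3 above the median, 3 after quantile normalization and 2 after median centring, where calls also grew over all genes (2.25%, 6.95%, 3.66% and 2.64% lower, against 0.963%), 3 at adjusted p under 0.1, and 0 to 1 with 1 array left out. Where 1 stimulated array was left out, the lone one was assumed to vary like the others. The labels do not say whether equal replicate numbers pair the arrays. Deviations from the group means correlated at -0.14 and -0.06 between arrays of equal number. The deviations of the 2 stimulated arrays mirror each other, so these values cannot decide on pairing. With the replicate number as a block no gene was called (Havcr2 3.57, limma adjusted p = 0.167). Directions of called members held in every fit. Signs that turned were those of genes not called with all arrays. With the block, Btla was -0.0033 and Cd200 -0.0030. Prdm1 was 0.014 with array weights and 0.017 after centring, where Fcgr2b was 4e-04. Leaving out 1 array gave -0.0033 to 0.0126 for Btla, -0.0716 to 0.0344 for Tox, -0.188 to 0.182 for Prdm1, -0.235 to 0.0963 for Cd274, -0.14 to 0.0415 for Cd80, -0.0026 to 0.0583 for Tnfrsf14, -0.0030 to 1.06 for Cd200, -0.198 to 0.157 for Fcgr2b and -1.45 to 0.125 for Gzma. With unstimulated array 3 as the lone control, Tox was 0.0688, Prdm1 0.364, Cd274 0.319, Pvr 0.0629, Cd86 0.360, Tnfrsf14 -0.0238, Cd3d 0.745 and Gzma 0.679. The cause of these shifts was not tested.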

Other observations

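The genes beside the receptor genes in RefSeq's order were also read. Tigit, which rose, lies beside Zbtb20, a transcription factor gene at 9.11, 9.14 and 8.79 on the unstimulated and 6.87 and 6.23 on the stimulated arrays (-2.47 ± 0.25 SE, limma adjusted p = 0.0517), and Drd3, the dopamine D3 receptor gene (0.09 ± 0.06). Havcr2 lies beside Med7 (0.74 ± 0.12 SE, adjusted p = 0.0812), and Lag3 beside Ptms as well as Cd4 (0.30 ± 0.10 for Ptms, 0.250). Of the nearest measured genes on each side of the 10 members, Cd200r4 alone was called. Tigit, Cd96, Btla and Cd200r1 all lie on chromosome 16, and of these Tigit rose and the others were not called.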
